A study of Mus musculus with 4 samples.

Results

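The sites described here are stretches of intergenic chromatin that were open in preadipocytes of both genotypes and had no peak after differentiation in either. They were chosen by the peak calls themselves: the 4 ATAC-seq peak lists were merged on chromosomes 1 to 19, and a region was kept when it held a WT D0 and a HY D0 peak and no WT D8 or HY D8 peak. It also had to lie outside the window from 1000 bp before to 100 bp after every annotated transcription start site (TSS), with its midpoint outside every protein-coding gene. This gave 11577 sites of 98469 merged regions (11.8%), covering 4.12 Mb of mm9 sequence. A site is called closed here only in the sense that no D8 peak was called on it, since reads below the calling threshold are not in the lists.

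ATAC-seq inserts sequencing adapters into accessible DNA with the Tn5 transposase. It was run on im-scWAT cells, stromal vascular preadipocytes from the subcutaneous white fat of 5-week-old mice that were immortalised with SV40 large T antigen. WT cells were Jmjd1a +/+, and HY cells were Jmjd1a HY/HY, in which a histidine-to-tyrosine change makes this histone H3 lysine 9 demethylase catalytically inactive in every cell of the donor mice. D0 nuclei were taken before differentiation. D8 nuclei were taken after 2 days with indomethacin, dexamethasone, 3-isobutyl-1-methylxanthine, rosiglitazone, insulin and T3, followed by 6 days with insulin, T3 and rosiglitazone, a beige adipocyte protocol. Each of the 4 groups was 1 library from an immortalised culture with no replicate, so the statements below compare these libraries, and intervals are 95% intervals for counting error only. Whether the cells had become adipocytes could not be read from these lists, which hold no expression values.

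Open intergenic sites away from promoters are where many enhancers lie, and the set that is open changes with cell type. In fibroblast-like progenitors such sites are often bound by AP-1 (dimers of FOS and JUN proteins), by TEAD factors, the DNA-binding partners of YAP and TAZ in the Hippo pathway, and by RUNX factors. During adipogenesis C/EBP factors, PPARG with RXR, EBF2 and NFI factors occupy another set of sites, while CTCF and promoter-type ETS sites tend to be open in most cell types.

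The lists held 41228 to 77994 peaks. The lowest local background of a list, its genome-wide rate of tags and a measure of its depth, fell between D0 and D8 to 0.806 of its value for WT and to 0.698 for HY, while HY D0 had 1.07 times the depth of WT D0. The summit pileup of a peak, the number of overlapping tags at its highest point, was solved from the deposited fold enrichment and -log10 p. It reached down to 5 tags in 3 of the lists and to 4 in HY D8.

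The closed sites are shown first by sequence. Each run gives the mm9 plus strand from 100 bp before to 100 bp after the WT D0 summit. The first pair are among the 12 strongest closed sites and hold an AP-1 match, TGANTCA, set in capitals. Another such site, near Zfp608 and ranked between them, is described further on without its sequence. The site upstream of Tnfrsf21, which encodes death receptor 6, lies at chr17:43127062-43127262 and has 3 matches, centred at -55, 10 and 63 bp from the summit. The site near A730011L01Rik lies at chr11:119378383-119378583 and has 1, at 51 bp.
Tnfrsf21 site: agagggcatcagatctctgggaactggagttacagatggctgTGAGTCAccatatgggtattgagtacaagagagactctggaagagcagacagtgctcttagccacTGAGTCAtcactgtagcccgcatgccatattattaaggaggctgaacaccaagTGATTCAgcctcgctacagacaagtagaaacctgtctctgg
A730011L01Rik site: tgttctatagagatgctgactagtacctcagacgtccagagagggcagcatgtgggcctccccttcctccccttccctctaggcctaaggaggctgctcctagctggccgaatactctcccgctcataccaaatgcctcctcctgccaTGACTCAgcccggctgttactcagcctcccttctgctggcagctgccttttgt

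The next pair, chosen after the values were seen, are the strongest closed sites with an AP-1 match nearest to Ctgf, a matrix-associated growth factor and target of YAP and TEAD, and to Tpm1, an actin-binding tropomyosin. The Ctgf site lies at chr10:24274002-24274202 with matches at -41 and 8 bp, and the Tpm1 site at chr9:66953789-66953989 with 1 match at 59 bp.
Ctgf site: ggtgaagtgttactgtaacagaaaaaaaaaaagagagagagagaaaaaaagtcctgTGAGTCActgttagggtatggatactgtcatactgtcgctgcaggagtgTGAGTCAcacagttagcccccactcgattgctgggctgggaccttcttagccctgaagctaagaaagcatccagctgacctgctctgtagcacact
Tpm1 site: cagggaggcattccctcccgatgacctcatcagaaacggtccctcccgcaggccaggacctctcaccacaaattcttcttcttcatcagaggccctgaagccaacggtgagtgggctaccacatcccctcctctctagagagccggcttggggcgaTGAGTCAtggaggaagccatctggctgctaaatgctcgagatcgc

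Most closed sites have no AP-1 match, and these are represented by the strongest sites of all without one, nearest to Skor1 (chr9:62915556-62915756) and Tbx18 (chr9:87706576-87706776), which have no capitals because they hold none of the 13 motifs searched.
Skor1 site: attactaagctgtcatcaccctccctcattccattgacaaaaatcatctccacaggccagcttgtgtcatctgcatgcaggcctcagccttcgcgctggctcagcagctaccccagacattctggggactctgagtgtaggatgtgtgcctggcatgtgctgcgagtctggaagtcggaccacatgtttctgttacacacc
Tbx18 site: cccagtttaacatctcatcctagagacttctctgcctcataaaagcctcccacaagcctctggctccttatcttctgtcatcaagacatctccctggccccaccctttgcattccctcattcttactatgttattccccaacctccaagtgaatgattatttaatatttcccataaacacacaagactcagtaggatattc

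The last pair, also chosen after the values were seen, are sites among the 12 strongest without AP-1 that hold a TEAD match, GGAATGT, or a RUNX match, TGTGGTT, on either strand. A stronger RUNX site, near Atp8b1, is given without its sequence. The printed sites lie nearest to Sox11 (chr12:28289272-28289472) and Fam126a (chr5:23562879-23563079), and the capitals mark the TEAD and the RUNX match respectively.
Sox11 site: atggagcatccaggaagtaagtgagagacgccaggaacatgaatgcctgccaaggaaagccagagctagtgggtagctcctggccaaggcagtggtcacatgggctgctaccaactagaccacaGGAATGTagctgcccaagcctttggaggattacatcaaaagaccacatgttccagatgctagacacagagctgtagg
Fam126a site: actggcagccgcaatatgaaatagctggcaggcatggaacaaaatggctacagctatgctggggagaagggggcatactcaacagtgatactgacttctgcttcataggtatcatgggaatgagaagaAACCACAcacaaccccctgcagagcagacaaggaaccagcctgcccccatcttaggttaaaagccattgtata

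Closed regions were the largest class of D0-open intergenic chromatin with the full peak lists, but not with lists of equal length. Of 21794 intergenic regions with a peak in both D0 libraries, the 11577 closed sites made up 53.1% (52.5% to 53.8%), against 42.8% of all 56625 regions open in both D0 libraries. A further 14.01% had a D8 peak in HY only, 3.29% in WT only, and 6447 (29.6%) had one in both and are called kept sites below. With all 4 lists shortened to their 40226 strongest peaks, 4401 sites closed (39.4%, 38.5% to 40.3%) and 43.1% were kept in both. Regions inside genes closed at 52.2% (51.5% to 52.9%) and promoter regions at 13.0% (12.5% to 13.6%). In the other direction, 2370 intergenic regions without a D0 peak had one in both D8 libraries and are called opened sites.

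**Figure D1:**
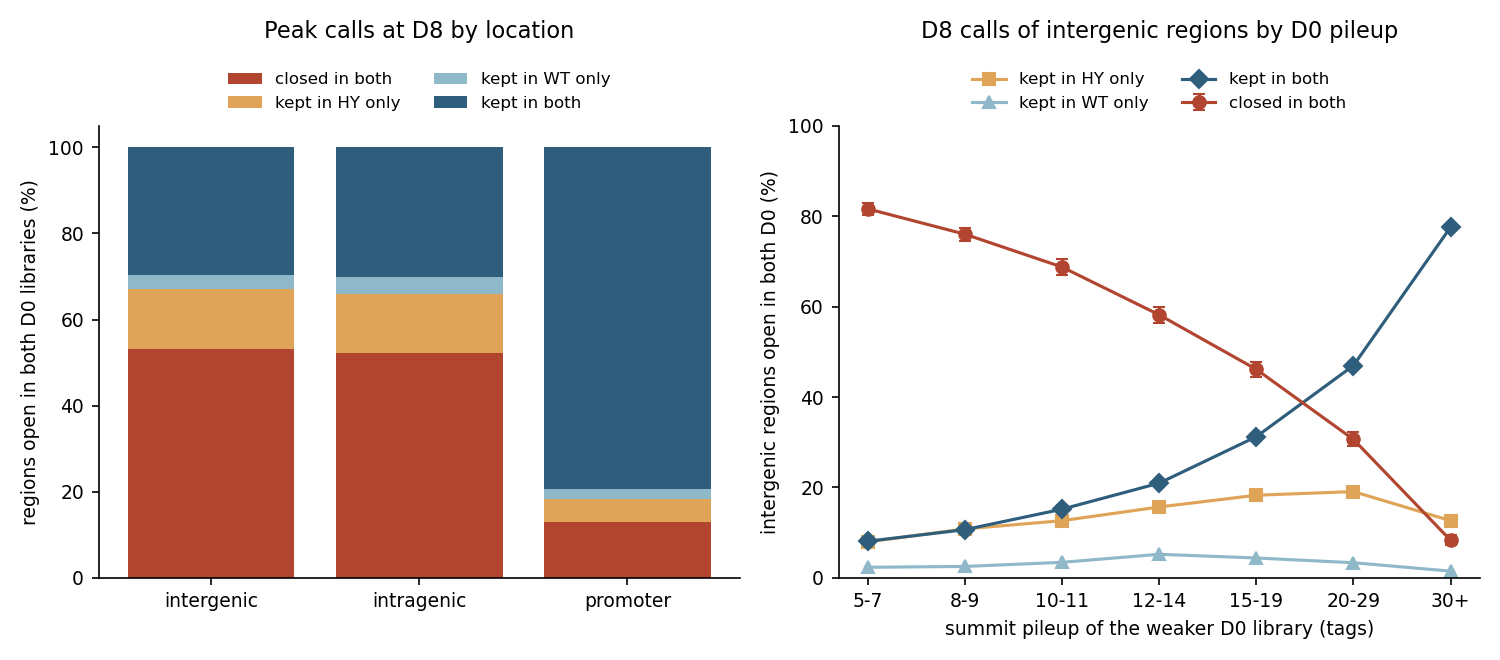
D8 peak calls of regions open in both D0 libraries. Left, the percentage of intergenic, intragenic and promoter regions in each class; right, the percentage of intergenic regions in each class (y axis) by the summit pileup of the weaker D0 library in tags (x axis), with 95% Wilson intervals on the closed class. Closed regions make up 53.1% of the intergenic bar and 13.0% of the promoter bar, and their share drops from 81.6% at 5 to 7 tags to 8.30% at 30 tags and over.

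Closed sites were the weaker part of D0 chromatin. Their median summit pileup was 11 tags in WT D0 (quartiles 9 and 16, range 5 to 70) and 13 in HY D0 (10 and 18, range 5 to 71). Kept sites had 24 tags for WT and 27 for HY at D0, and a median of 14 tags in each D8 library. The background around a closed site was low as well, with a median of 0.801 tags in WT D0 against 1.54 at kept sites. Closed regions were narrow, with a median width of 309 bp against 556 bp for kept ones, and 96.7% held exactly 1 peak from each D0 library. These D0 values come from the peak calls that chose the sites and are given as a description.

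The share that closed followed the D0 pileup closely, as the plot of D8 calls by D0 pileup shows. Where the weaker D0 library had 5 to 7 tags, 81.6% (80.2% to 83.0%) of intergenic regions closed. With 12 to 14 tags 58.2% closed, with 20 to 29 tags 30.6%, and with 30 or more 8.30% (230 of 2770). The lower D8 depth moves with this result. After scaling each D0 pileup to D8 depth, 93.6% of the closed sites would still reach the smallest pileup called at D8 in both genotypes, and 71.5% would reach the 5th percentile of D8 pileups. The scaling used only the background ratios, 0.806 for WT and 0.698 for HY. At kept sites the median pileup fell by more than these ratios, from 24 to 14 tags in WT and from 27 to 14 in HY. Scaled in that way, fewer closed sites would reach the D8 values, and how many was not computed. The part of depth in the closures beyond these values was not tested.

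The weakest closed sites sat at the calling threshold. The site nearest to Tm4sf19 had 5 tags in WT D0 and 13 in HY D0, with a WT -log10 q of 1.32. A site 241 kb from St3gal1 had 9 and 5 tags, and one near Slc5a7 had 9 and 7. Just outside the rule were regions whose only D8 peak had 4 tags, in HY D8. One such region, nearest to 4933403G14Rik, had 39 tags for WT and 38 for HY at D0. The others, nearest to Prl2c3 and Cldn4, had 9 and 6 tags in WT D0 and 15 and 13 in HY D0. The 4933403G14Rik region, strong at D0, was thus kept out of the closed class by a single peak of 4 tags.

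The strongest closed sites were well above that threshold in both genotypes. Ranked by the -log10 q of the weaker genotype, the first lay 79.1 kb downstream of Skor1, which encodes a SKI-family corepressor, at chr9:62915301-62916036, with 54 tags for WT and 52 for HY at D0. The second lay upstream of the T-box factor gene Tbx18 at chr9:87706043-87707149, with 54 and 53 tags. A site near Crabp1, whose product binds retinoic acid, had 40 and 48 tags. Being ranked by the weaker genotype, these sites were bound to be strong in both.

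The site nearest to Sox11, an HMG-box transcription factor gene 262 kb away, had 43 tags in WT D0 and 39 in HY D0, and the nearest D8 peak of either genotype was 114 kb away. The Tnfrsf21 site had 34 and 47 tags. Other sites among the 12 strongest lay nearest to Atp8b1, a phospholipid flippase (48 and 52 tags), Prodh, proline dehydrogenase (36 and 35), and Zfp608, a zinc finger gene (37 and 50). Sites nearest to 4933402D24Rik, A730011L01Rik, Acbd6 and Fam126a completed them, with 36 to 49 tags in WT D0 and 36 to 46 in HY D0. The 4933402D24Rik site was the only one of the 12 with a D8 peak within 500 bp, at 311 bp. AP-1 matches were found in 3 of these 12, nearest to Tnfrsf21, Zfp608 and A730011L01Rik.

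Each closed site had a D0 peak in both genotypes by the rule, so the WT and HY pileups are compared here as a description of sites already called in both. The depth-scaled log2 ratio of HY to WT pileup had a median of 0.081 over the closed sites (quartiles -0.27 and 0.41), 0.184 without depth scaling and 0.119 with lists of equal length, and 93.5% of sites were within 2-fold. The SD of the ratio was 0.53, and counting error at the 2 median pileups alone would give 0.59. At kept sites these values were 0.406 and 0.405. Requiring a peak in both libraries leaves out sites with very unequal pileups and so narrows the SD. Setting it beside counting error therefore cannot show how alike the genotypes were. More than 2-fold higher pileup was found in HY at 474 sites (4.09%) and in WT at 274 (2.37%). Kept sites had a median ratio of 0.041 and 97.5% within 2-fold. Summits of the 2 genotypes were 33 bp apart in the median at closed sites and 20 bp at kept ones. With 1 culture per genotype, the allele and the culture cannot be told apart.

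**Figure D2:**
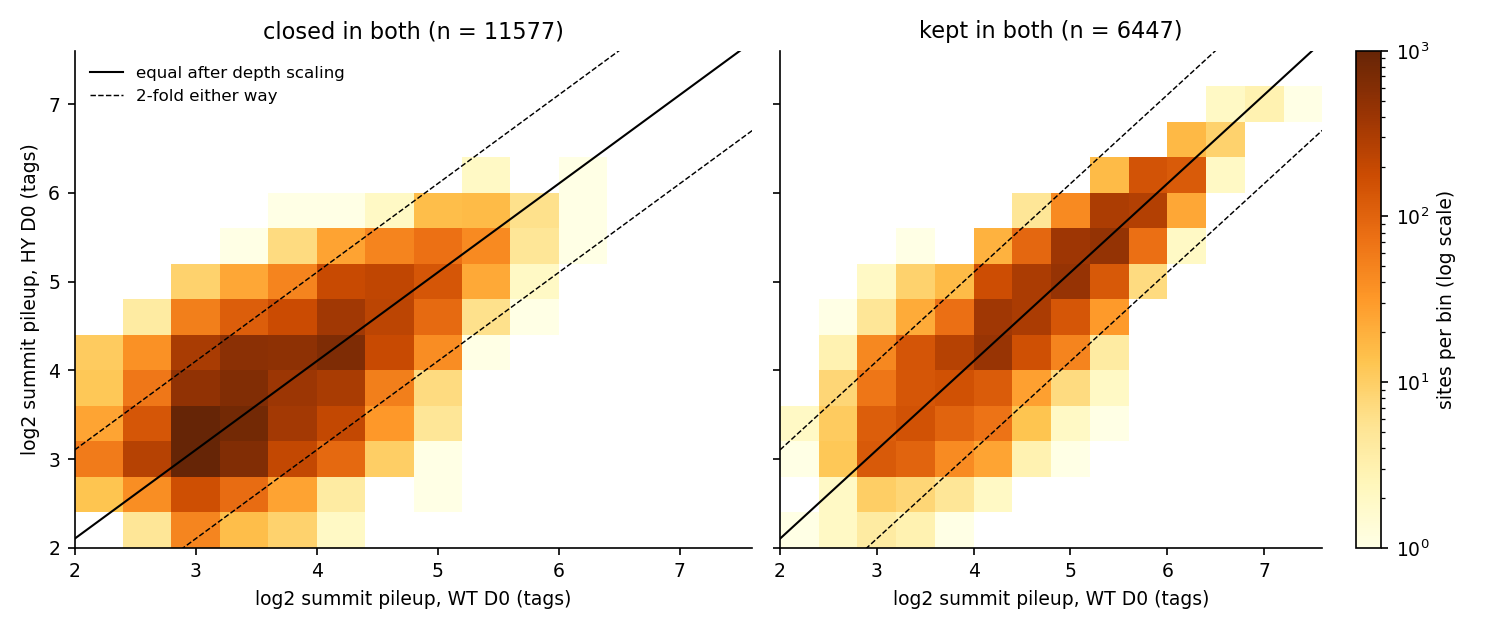
D0 summit pileup of WT (x axis) against HY (y axis), both as log2 of the tag number, for the 11577 closed and the 6447 kept intergenic sites; colour gives the number of sites per bin on a log scale, the solid line equal pileup after depth scaling and the dashed lines a 2-fold difference. Closed sites crowd at low pileup around the solid line, with 93.5% between the dashed lines against 97.5% of kept sites.

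Closed sites lay far from genes. The median distance from the midpoint to the nearest protein-coding TSS was 41.8 kb (quartiles 15.1 and 110 kb), against 27.6 kb for kept and 31.1 kb for opened sites. Of the closed sites 27.1% were over 100 kb from any such TSS, compared with 16.2% of kept and 20.8% of opened ones. Accordingly, the share of D0-open regions that closed went from 46.9% (44.6% to 49.2%) within 5 kb to 67.1% (64.8% to 69.3%) at 250 kb and beyond. The median pileup of the weaker D0 library moved with it, from 17 tags within 5 kb to 11 at 250 kb and beyond, and its part in the trend was not tested. Non-coding genes held 587 of the midpoints (5.07%), 309 of them lincRNA genes.

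Every autosome contributed. The closed share of D0-open intergenic regions ranged from 49.9% (46.9% to 53.0%) on chromosome 7 to 55.9% (53.3% to 58.5%) on chromosome 3. Closed sites per Mb ranged more widely, from 3.28 on chromosome 14 to 6.57 on chromosome 15, which carries the Has2, Myc, St3gal1 and Asap1 loci described below.

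Most closed sites stood alone. No other closed site lay within 10 kb of 7658 of them (66.1%), 2804 formed pairs, and 1115 (9.63%) fell into 338 clusters of 3 or more. The largest clusters had 6 members. One spanned 32.9 kb, 43.7 to 76.2 kb from Gcnt1, a gene for an O-glycan branching enzyme, and held 7 regions in all, none of them open at D8. A cluster near Pbp2 spanned 18.9 kb with 6 closed sites and no other region. Those near Klhdc8a, Fam72a and Cdc42ep3 each held 1 further region that was open in a D8 library. Across the 5 clusters the pileups ran from 7 to 37 tags in WT D0 and from 5 to 37 in HY D0.

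Closed sites lay farther from their nearest opened site than kept sites did. An opened intergenic site lay within 50 kb of 24.6% of closed sites (2844) and of 39.1% of kept sites (2520), and the median distances were 147 and 76.3 kb. Any D8 peak at all lay within 10 kb of 44.1% of closed sites and within 500 bp 4.405% (510). The greater distance of closed sites from genes accompanies this difference, and its part was not tested.

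Closed sites were lower in GC than kept sites and higher than the DNA around them. Within 100 bp of the WT D0 summit the median GC content was 47.8%, against 52.2% at kept sites, 49.3% at opened sites and 44.8% in windows 1000 bp to either side. At least 5 CpG dinucleotides were present in 15.9% of closed windows, 35.4% of kept, 13.0% of opened and 8.64% to 9.12% of flanking ones.

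Of the 13 motifs, AP-1 had the highest share in closed sites and the highest ratio to the flanks, while TEAD and RUNX had higher ratios to kept sites. With both strands searched within 100 bp of the summit, 3886 closed sites had a TGANTCA match (33.6%, 32.7% to 34.4%). The share was 25.4% (24.3% to 26.4%) in kept sites, 8.31% (7.27% to 9.49%) in opened sites, 6.27% in the flanking windows and 22.0% in all merged regions. Regions inside genes that closed in both genotypes had 31.5% (30.6% to 32.4%), so AP-1 was not particular to intergenic closed sites. The ratio of closed to kept shares was 1.32 (1.26 to 1.39) and that of closed to opened shares 4.04 (3.52 to 4.63). Among the 4279 words of 7 letters found in at least 2% of closed or kept windows, TGACTCA differed most from the flanks, at 27.8% of closed sites against 3.89%. The next 4 words were overlapping parts of the same element, and the TEAD word was number 10.

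The AP-1 matches clustered at the summit, as the motif profiles show. The central 40 bp held 5.85 matches per 100 closed sites per 20 bp, 8.11 times the 0.721 found 400 to 500 bp away. The same ratio was 6.16 at kept sites and 1.63 at opened sites. Closed sites with 2 or more matches, like the Tnfrsf21 and Ctgf sites, numbered 589 (5.09%), against 3.63% of kept sites. Stronger closed sites more often had a match, from 28.8% in the weakest of 5 equal classes to 42.6% in the strongest. The CTCF core went the other way, from 5.14% to 2.68%.

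**Figure D3:**
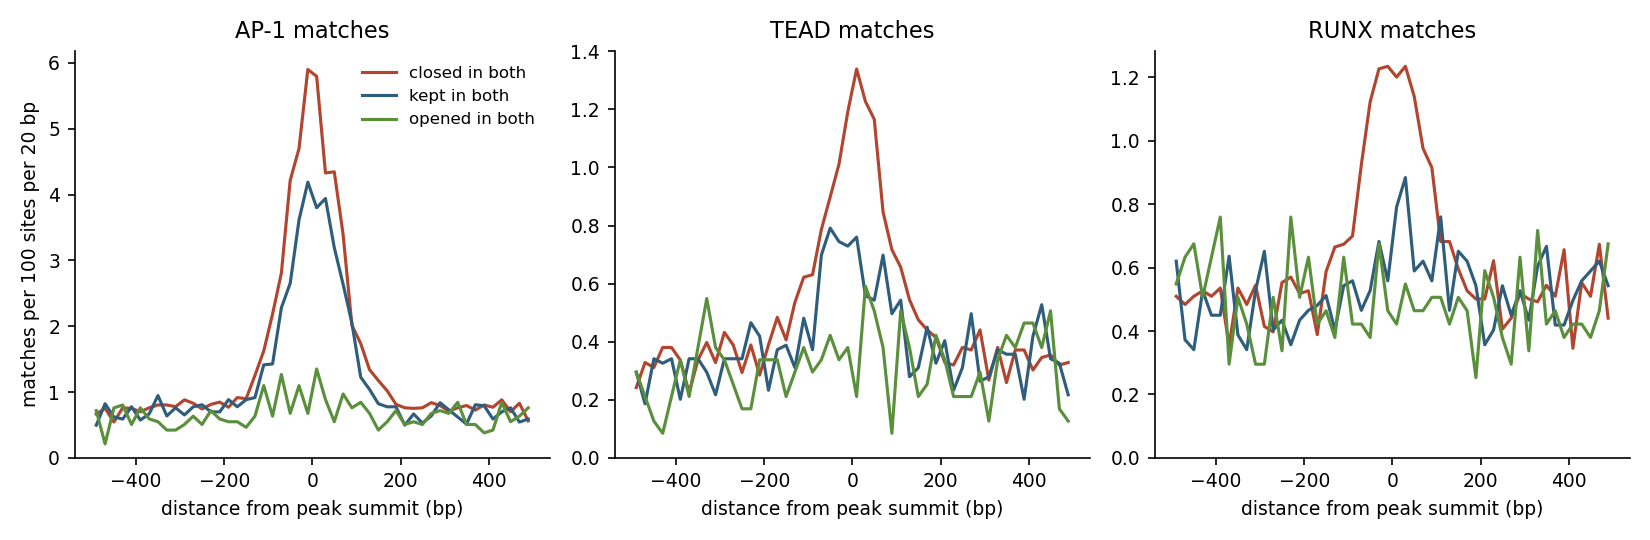
AP-1, TEAD and RUNX matches per 100 sites in 20-bp bins (y axis, with a separate scale per panel) by distance from the peak summit in bp (x axis) for closed, kept and opened intergenic sites. In all 3 panels the closed sites have the tallest central peak, 5.85 per 100 sites for AP-1, while opened sites show at most a slight rise.

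The excess of AP-1 over kept sites was present at every D0 strength. When regions were split into 5 equal classes by WT D0 -log10 q, the ratio was 1.496, 1.85, 1.87, 1.59 and 1.32 from the weakest to the strongest class. Put the other way, regions with an AP-1 match closed more often than those without in each class, at 86.4% against 76.8% in the weakest and 19.01% against 14.8% in the strongest. Over all strengths the shares were 58.5% (57.3% to 59.7%) and 50.8% (49.96% to 51.6%). Adjustment for GC content lowered the excess. The ratio combined over 6 GC classes was 1.17 (1.12 to 1.23), and combined over GC and strength classes it was 1.42 (1.34 to 1.51). In the lowest and highest GC class the intervals of the ratio included 1.

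TEAD and RUNX matches were less frequent than AP-1 and differed more from kept sites. GGAATGT was found in 9.14% of closed, 6.10% of kept and 3.50% of opened sites, and in 6.30% of all regions. TGTGGTT was found in 9.89%, 5.93%, 4.43% and 6.76% in the same order. Regions inside genes that closed in both genotypes had 9.11% for TEAD and 9.68% for RUNX. These motifs were thus not particular to intergenic closed sites either. With GC class and strength held fixed, the ratio of closed to kept sites was 1.72 (1.501 to 1.97) for TEAD and 1.59 (1.39 to 1.81) for RUNX. With GC class alone it was 1.28 (1.14 to 1.44) and 1.35 (1.21 to 1.52). Both also peaked at the summit, at 3.84 and 2.41 times the level 400 to 500 bp away. TEAD matches were found in 7.33% of closed sites with an AP-1 match and 10.1% of those without, and RUNX matches in 8.70% and 10.5%. None of the 3 motifs was found in 6199 closed sites (53.5%).

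Motifs of the adipocyte programme were less frequent in closed than in opened sites, and for C/EBP, EBF and NFI also less than in kept sites. The C/EBP motif TTGCNNAA was found in 9.67% of them, near the 8.57% of flanks, against 13.1% of kept and 28.2% of opened sites (11.4% of all regions). The ratio of closed to opened shares was 0.34 (0.31 to 0.37). The EBF motif TCCCNNGGG was found in 4.85% of closed, 7.65% of kept and 10.2% of opened sites (2.43% of flanks, 6.04% of all regions). The NFI motif TTGGCA was found in 16.3%, 17.6% and 27.5% (9.99% of flanks, 16.2% of all regions). EBF and NFI matches were thus above the flanks in closed sites, and NFI was at the level of all regions. The PPAR:RXR core GGTCANAGG was rare, at 1.17% of closed, 1.27% of kept and 2.49% of opened sites (1.14% of flanks, 1.37% of all regions), and the interval of its stratified ratio to kept sites, 0.66 to 1.26, included 1.

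Among the remaining motifs, the E-box CAGCTG was searched under the label of a TCF21/TWIST type, and other E-box words were not searched. It was found in 17.4% of closed, 17.1% of kept and 17.1% of opened sites (16.4% of all regions). Its ratio of closed to kept sites was 1.29 (1.19 to 1.40) with GC class and strength held fixed. The CTCF core AGGGGGC was found in 4.49% of closed and 6.79% of kept sites (5.82% of all regions), and the ETS motif CCGGAAG in 1.06% and 2.88% (2.95%). The CTCF ratio was 0.66 without strata, 1.02 (0.90 to 1.16) by GC class, and 0.79 (0.68 to 0.92) by GC class and strength. The glucocorticoid receptor core ACANNNTGT was found in 7.10% of closed and 6.30% of kept sites (6.32% of all regions), with a ratio of 1.13 (1.005 to 1.26) without strata and 0.99 (0.87 to 1.13) by GC class and strength. The CRE TGACGTCA was found in 0.371% and 0.636% (0.695%), with ratios of 0.58 (0.38 to 0.89) and 0.95 (0.51 to 1.78). The FOX motif TGTTTAC was found in 2.74% and 2.59% (2.51%), and the intervals of both of its ratios included 1. A match shows these letters only, and not that a factor was bound.

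**Figure D4:**
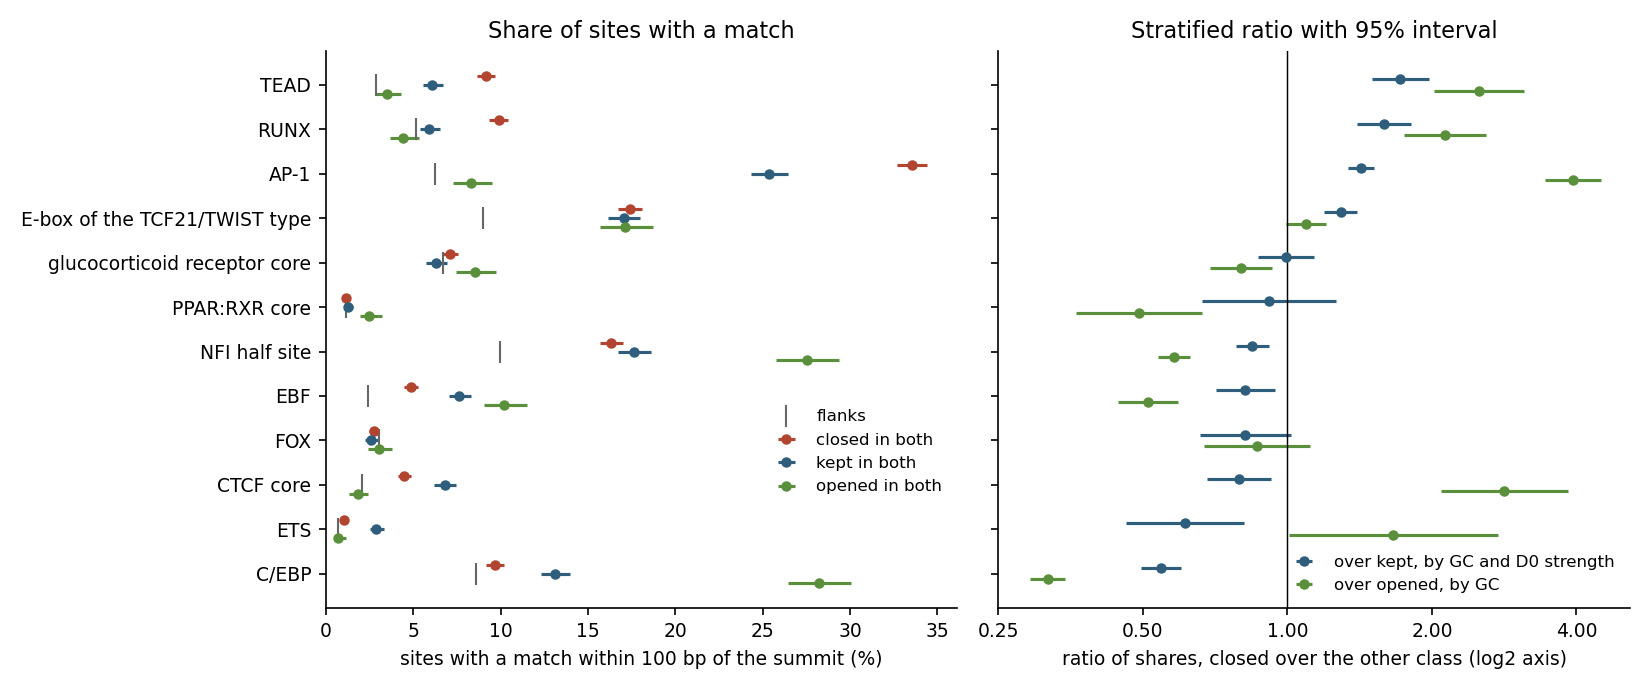
Left, the percentage of closed, kept and opened intergenic sites with a motif match within 100 bp of the summit (points, 95% Wilson intervals), with the flanking windows as grey ticks; right, the ratio of the closed share to the kept share (strata of GC content and D0 strength) and to the opened share (strata of GC content) on a log2 axis, with 95% intervals. TEAD, RUNX and AP-1 have ratios of 1.42 to 1.72 over kept sites, while C/EBP is at 0.55 over kept and 0.32 over opened sites.

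Closed sites were spread over many genes. Taking the nearest protein-coding TSS, 5278 of 21281 genes (24.8%) had at least 1 closed site, and 2854 of these had exactly 1. The share of genes was 13.1% with lists of equal length and 38.2% when a closed site within 50 kb of a TSS was counted. The 528 genes with 5 or more held 33.2% of all closed sites. The nearest gene need not be the gene that a site regulates, and genes in wide gene-poor stretches collect more sites.

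Adamts5, which encodes an aggrecan-degrading protease of the extracellular matrix, had the most. Of 25 intergenic regions open at D0 around it, 21 closed in both genotypes, with 6 to 24 tags in WT D0 and 5 to 22 in HY D0. Has2, the hyaluronan synthase gene, had 18 of 22, spread from 27.0 to 360 kb from the TSS. No region opened at either gene. Asap1, an Arf GTPase-activating protein gene on the same chromosome as Has2, had 19 of 25. These 3 genes had closed shares of 76.0% to 84.0%, above the 53.1% of all intergenic regions, although they were picked for their many closed sites.

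The other genes with most closed sites kept more of their D0 chromatin. St3gal1, a sialyltransferase gene, had 19 of 32, and the transcript 5930403N24Rik had 19 of 31. Klf6, a zinc finger factor gene, had 18 of 32, with 11 kept and 6 opened regions beside them. Zmiz1, a transcriptional coregulator gene, and Rnd3 each had 17 of 27. Zfp608 had 17 of 34. Myc, the growth regulator, had 17 closed among 47 D0-open regions (36.2%), 19 kept and 12 opened, so closed and opened sites shared this locus. AP-1 matches lay in 67 of the 182 closed sites at these 10 genes (36.8%, against 33.6% of all closed sites), from 2 of 17 at Zmiz1 to 10 of 19 at St3gal1.

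**Figure D5:**
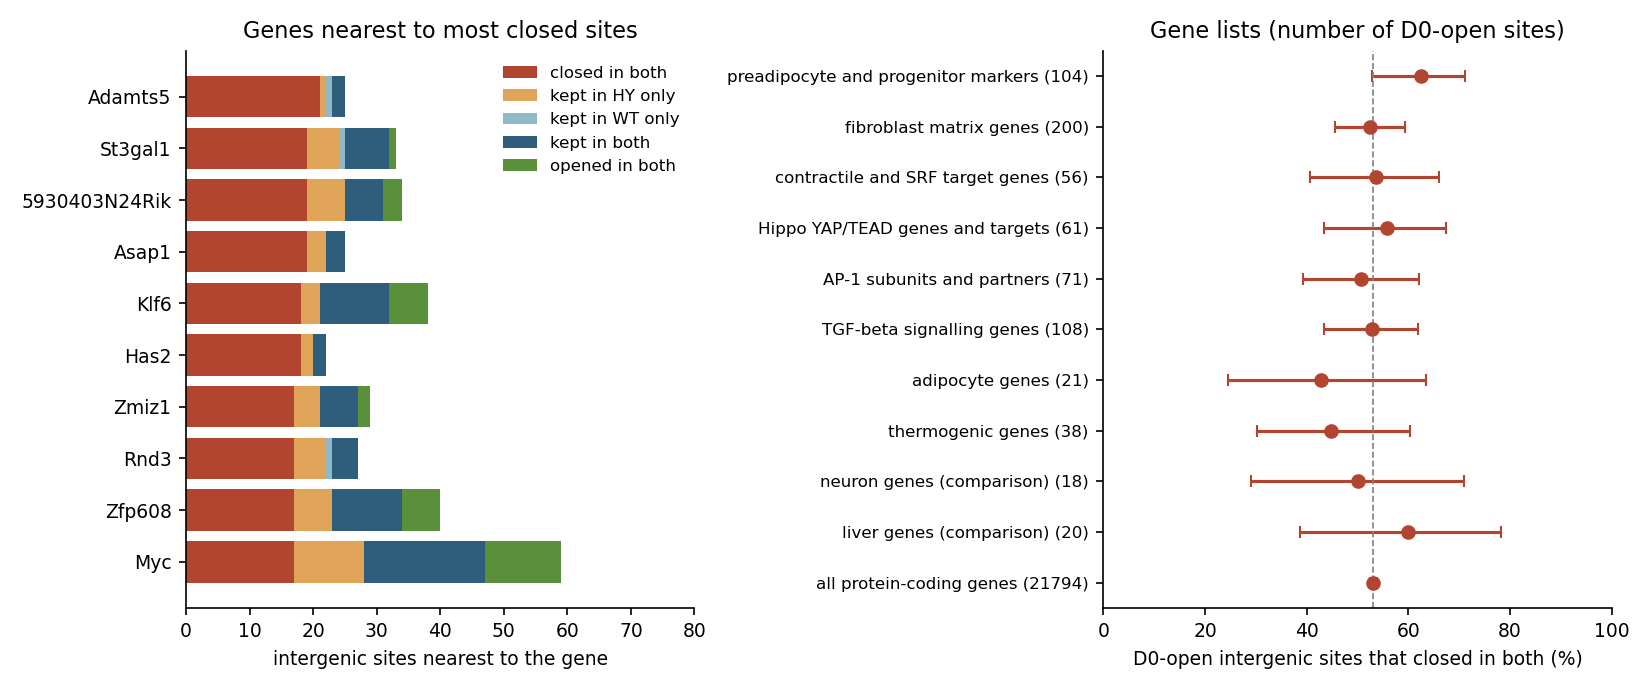
Left, intergenic sites nearest to the 10 genes with most closed sites, stacked by class (x axis, number of sites); right, the percentage of D0-open intergenic regions nearest to the genes of each list that closed in both genotypes, with 95% Wilson intervals, the number of D0-open regions in parentheses and the value over all genes as a dashed line. Adamts5 and Has2 are almost wholly closed, Myc holds closed, kept and opened sites, and with the full peak lists every gene list has an interval that includes the 53.1% of all genes, while with lists of equal length the progenitor interval lies above the value of all genes.

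Genes of the preadipocyte state were often next to closed sites. A closed site was nearest to 18 of 25 preadipocyte and progenitor markers, 20 of 25 fibroblast matrix genes, 13 of 20 TGF-beta signalling genes, 12 of 19 Hippo genes and targets, 12 of 20 AP-1 subunits and partners and 8 of 19 contractile genes, against 24.8% of all genes. A closed site was also nearest to 4 of 20 adipocyte and 8 of 19 thermogenic genes, and to 5 of 19 neuron and 8 of 20 liver genes taken as comparison lists, so thermogenic and liver genes were near the contractile list. The lists differed in how many D0-open intergenic regions they had, from 18 at neuron genes to 200 at matrix genes. The share of those regions that closed was 62.5% (52.9% to 71.2%) for the progenitor list, 50.7% to 55.7% for the other 5 lists of the preadipocyte state, 42.9% (24.5% to 63.5%) for adipocyte genes and 44.7% (30.1% to 60.3%) for thermogenic genes. In the comparison lists, 12 of 20 regions closed at liver genes (interval 38.7% to 78.1%) and 9 of 18 at neuron genes (29.03% to 70.97%). With the full lists all of these intervals include the 53.1% of all intergenic regions. With lists of equal length the progenitor share was 54.5% (41.5% to 67.0%), above the 39.4% of all, and with no D8 peak allowed within 500 bp its interval of 52.9% to 71.2% lay above 50.8%. With lists of equal length the adipocyte share was 18.2% (5.14% to 47.7%), and the liver share had an interval of 7.15% to 59.1%. Opened sites were 7 against 65 closed at progenitor markers, 20 against 9 at adipocyte genes, 17 against 17 at thermogenic genes, 15 against 36 at AP-1 genes, 12 against 57 at TGF-beta genes, 13 against 105 at matrix genes, 6 against 34 at Hippo genes, 6 against 30 at contractile genes, 3 against 12 at liver genes and 1 against 9 at neuron genes, beside 2370 against 11577 over all genes. The genes with most closed sites were Stmn2 (5 of 10) among neuron genes and Apob (4 of 7) among liver genes.

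Among progenitor markers, Zfp521, a zinc finger gene that restrains adipogenesis, had 10 of its 12 D0-open regions closed. Sox9 had 9 of 15 and Gata3 8 of 10. AP-1 matches lay in 27 of the 65 sites of the list (41.5%, against 33.6% of all closed sites). There were 7 each at Sox9 and Gata3, 3 at Zfp521 and 2 each at Dlk1 and Thy1. A share above 33.6% was not particular to this list. It was also found at neuron (6 of 9), adipocyte (4 of 9), AP-1 (15 of 36) and Hippo genes (12 of 34). The share was lower at matrix (26 of 105), TGF-beta (12 of 57), contractile (9 of 30), thermogenic (5 of 17) and liver genes (3 of 12). Dlk1, which encodes the preadipocyte factor PREF1, had 7 of 8. The Dlk1 sites lay 11.3 to 58.8 kb upstream, with 13, 12, 16, 14, 7, 9 and 14 tags in WT D0 and 7, 10, 13, 13, 8, 12 and 17 in HY D0 in order towards the gene. None was more than 2-fold apart between genotypes. No Dlk1 region was kept in both genotypes or opened. Thy1 also had 7, of 10, while Pdgfrb, Eng and Klf2, named after their values were seen, had no intergenic region open in both D0 libraries. The markers with most closed sites do not stand for the whole list. Of others named after their values were seen, Wisp2 had 2 of 7 closed and 5 kept, and Cd34 2 of 6 closed and 3 kept. Twist2 had 2 of 6 and Pdgfra 1 of 3, while Cd44 had 5 of 9 and Prrx1 3 of 3.

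Collagen and matrix genes had both closed and kept sites. Thbs1, the thrombospondin gene, had 16 closed and 14 kept among 34 D0-open regions, and Tnc, tenascin C, had 13 of 21. At Col3a1, the type III collagen gene, 12 of 15 closed, the nearest 2.31 kb upstream with 17 tags in WT D0 and 21 in HY D0. At Col1a2, the type I collagen gene, 8 of 13 closed and 4 were kept. The strongest closed Col1a2 site, at chr6:4439193-4439688 and -15.4 kb from the TSS, had 47 and 51 tags at D0. The kept region next to it, at chr6:4438390-4438715, had 41 and 44 tags at D0 and 13 and 9 at D8. Regions of like D0 strength at the same place thus fell on either side of the D8 calls. None of these 8 closed and 4 kept regions had an AP-1 match.

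Hippo, contractile and TGF-beta genes also had both closed and kept sites. Ctgf had 7 of 10 closed and none kept in both genotypes, with 12 to 20 tags in WT D0 and 8 to 22 in HY D0, and 4 of the 7 had an AP-1 match. Amotl2, an angiomotin gene, had 6 of 11, Ankrd1 5 of 8 and Cyr61 4 of 11. Tpm1 had 12 of 14, and its pileups were 8 to 26 tags in WT D0 and 11 to 43 in HY D0. HY had more tags than WT at 10 of the 12 Tpm1 sites, before and after depth scaling, the widest ratio being 23 against 9, and the other 2 had equal tags before scaling. Other loci counted in the same way were less one-sided, except Ppara with 1 of 1. HY was higher at 12 of 18 Has2 sites (10 after scaling), 7 of 12 at Col3a1 and 4 of 8 at Col1a2. It was higher at 3 of 7 at Ctgf and at Dlk1, and at 2 of 4 at Ppargc1a. These counts rest on 1 library of each genotype.

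Fhl2, a LIM domain cofactor gene, had 6 of 11 and Mkl2, an SRF coactivator gene, 5 of 12. The ligand genes Tgfb2 and Inhba had 10 of 16 and 10 of 13, and the receptor gene Tgfbr2 7 of 12. Smad6, an inhibitor of BMP signalling named after its values were seen, had none of 10 closed and 7 kept. Among AP-1 genes, the large MAF factor gene Maf had 11 of 17, Fos 5 of 11, Jun 4 of 8 and Bach2 4 of 7.

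Closed sites were nearest to 4 of 20 adipocyte genes, 9 sites in all, and to 8 of 19 thermogenic genes, 17 in all. Ppargc1a, the PGC-1 alpha coactivator gene, had 4, at 363, 341, 312 and -198 kb from its TSS, where a minus sign means upstream. They had 16, 7, 14 and 11 tags in WT D0 and 12, 11, 14 and 14 in HY D0. Farther upstream 4 regions opened, at -258 to -301 kb, with 7 to 15 tags in WT D8 and 7 to 13 in HY D8. The region kept in both genotypes, at -28.2 kb, had 13 and 26 tags at D0 and 27 and 38 at D8. Closed and opened chromatin thus lay on separate stretches around Ppargc1a.

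At Ppara, a nuclear receptor gene of fatty acid oxidation named after its values were seen, 1 region closed, at chr15:85518047-85518308, with 31 tags in WT D0 and 44 in HY D0. It lay among 4 kept and 7 opened regions, next to a kept one at chr15:85517055-85517894. Tmem26, a beige cell surface marker gene, had 5 of 10 closed, Esrrg, an orphan nuclear receptor gene, 2 of 2 and Zfp516 2 of 5. Lep, the leptin gene, had 4 of 7 and Scd1, a fatty acid desaturase gene, 1 of 3. Pparg and Adipoq had 2 of 3 each. Ucp1 and Cidea, also named after their values were seen, had none, with 1 D0-open region each, kept in both cases.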

How the data were processed

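ATAC-seq was run on 4 libraries of im-scWAT cells, 1 each for WT D0, WT D8, HY D0 and HY D8. The submitters' processing notes name Bowtie2, SAMtools, Picard, deepTools and mm9, and the study describes trimming, duplicate removal and peak calling, with peaks called per library. Versions, the calling threshold and any Tn5 shift are not given in the sources used here, and an unshifted end can move a summit by a few bases. For each peak the authors deposited a fold enrichment (a ratio), -log10 p and -log10 q, none of them normalised between libraries. The summit offset came from the same lists. Absolute depth is unknown.

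Pileup and background were solved from the fold and -log10 p (100% of peaks within 0.002, tested on simulated data). Peaks were merged with BEDTools 2.31.1. TSS, genes and sequence came from NCBIM37 (mm9) with GENCODE, where 0 chromosomes had a peak beyond their end. Coordinates are 1-based. Motifs were searched within 100 bp of the WT D0 summit with Python 3.11.15. Shares have Wilson intervals, ratios have Katz intervals or, over strata, Mantel-Haenszel ratios with Greenland-Robins intervals. Regions are not replicates, and no p-values were computed. The members, gene lists and motifs were chosen with earlier results of these data known. Genes named are those of the 12 strongest sites, the 10 with most sites, the 5 largest clusters, those with most sites in each list (up to 4, ties aside) and those nearest the thresholds, with others where stated. The sequence rule asked for 4 sites with AP-1 among the 12 strongest. There were 3, of which 1 lies on chromosome 18, where no sequence is shown, as does the strongest RUNX site.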

Additional observations from a re-analysis of the deposited data

Results flagged for a closer look

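Chromosome X lies outside the rule, which is limited to chromosomes 1 to 19, and also held regions with the same pattern of calls. On it, 256 of 430 intergenic regions open in both D0 libraries had no D8 peak in either genotype (59.5%, 95% Wilson interval 54.8% to 64.1%), against 53.1% on the autosomes. There is no control sample for this comparison. The WT lists held 1560 peaks on chromosome X at D0 and 883 at D8, and the HY lists 1627 and 1013. On chromosome Y the WT lists held 1 and 1 and the HY lists 7 and 6, so the 2 cultures also differed there, and the part of this in the chromosome X value was not tested.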

How the results depend on the processing

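The 9 summary values, and 14 further values (the kept share, the TEAD, RUNX and C/EBP ratios and the closed share of each gene list), were recomputed under the alternatives, while clusters, neighbours and single genes were not. For the 14, the summit pileup and the AP-1 ratio outside strength classes, the alternatives were chosen after seeing the data. Of 149 recomputed values, 109 stayed within the 95% interval of the reported value (for the number of sites, within 1.5 times), 40 moved out of it and 0 changed sign or, for a ratio, passed 1. The order of values did change: closed against kept turned with lists of equal length, and the closed share of 5 of 10 gene lists moved to the other side of all genes there, of 3 with D0 peaks of -log10 q of at least 5, of 2 with the wider TSS window and of 1 with all gene bodies excluded. Shortening every list to its 40226 strongest peaks left 4401 closed sites (39.4% of D0-open intergenic regions, against 43.1% kept), with a median WT D0 pileup of 17.0 tags, an AP-1 share of 40.6%, an AP-1 ratio of 1.47 over kept sites, a median TSS distance of 46.9 kb, 13.1% of genes and a median log2 HY to WT ratio of 0.119. With D0 peaks of -log10 q of at least 5, 7274 sites were left (44.7%), with 14 tags, 36.2% AP-1, 44.4 kb and 18.7% of genes. Both keep fewer D0 peaks by construction. Requiring no D8 peak within 500 bp gave 50.8% closed and 24.1% of genes. A TSS window from 2000 bp before to 1000 bp after gave 43.4 kb and 23.9% of genes, and excluding all gene bodies 23.9% of genes. A closed site within 50 kb of a TSS was found for 38.2% of genes. Without depth scaling the log2 HY to WT ratio was 0.184. AP-1 shares were 22.5% within 50 bp and 41.1% within 200 bp of the summit. The AP-1 ratio was 1.5, 1.85, 1.87 and 1.59 in the 4 weaker of 5 strength classes. Chosen after seeing the data, strata of GC content gave 1.17 and GC with strength 1.42, and testing each site against its own local background put 90.3% above the D8 calling minimum, between 93.6% for the smallest D8 pileup and 71.5% for the 5th percentile. No paired analysis was possible because the groups share only 1 replicate number and a region without a peak has no value in that library.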
